A study of Mus musculus with 6 samples.

Results

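Plac8, Prag1, Rflnb and Mirt1 are 4 of the 19938 genes measured on these arrays, selected on the difference in log2 signal between Bach2 knockout and wildtype arrays, where they were among the largest rises, and because little is known of them in thymocytes. Each was read from the probe set with the highest mean among those annotated with that single symbol. Because the knockout against wildtype difference chose them, their own differences are given below as a description, without a test. The study profiled sorted CD4 single-positive thymocytes of the mouse, T cells of the thymus that have settled on the co-receptor CD4, on 6 arrays. The knockout group comprised 3 samples carrying the Bach2 knock out and lacking the Ly5.1 allele, and the wildtype group comprised 3 Ly5.1+ samples. Ly5.1 is a variant of the surface protein CD45 (gene Ptprc) that allows cells of a donor to be told apart by antibody staining. Both donors were male, on the C57BL/6 background and 8 weeks old. Their marrow, depleted of mature lineages, was mixed in equal parts and given to lethally irradiated Rag1 knockout males of the same age, hosts that cannot make T or B cells, so that thymocytes of both genotypes developed in the same kind of host for 2 months before the sort. Each sample came from a separate mouse. The Ly5.1 allele goes together with genotype and cannot be told apart from it, and which part of Bach2 was deleted is not stated in the labels.

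Bach2 encodes a repressor of transcription that pairs with small Maf proteins and binds Maf recognition elements, whose core is the site that AP-1 factors use, and it is known for holding back effector programmes in T cells. The 4 genes share no family. Plac8, also called onzin, encodes a small cysteine-rich protein found in placenta and in several myeloid and lymphoid cells. Prag1 (pragmin, also Sgk223) encodes a pseudokinase, a kinase-like protein without ordinary kinase activity, that binds the Src inhibitor Csk and links the GTPase Rnd2 to RhoA. Rflnb (refilin B, formerly Fam101b) encodes a protein that binds filamins, the cross-linkers of actin filaments. Mirt1 is a long non-coding RNA named for its rise in the mouse heart after infarction.

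The genes lie on different chromosomes, Plac8 on chromosome 5, Prag1 on 8, Rflnb on 11 and Mirt1 on 19, whereas Bach2 is on 4 and Ptprc on 1. Promoters of 3 of the 4 genes were matched in the RefSeq table of build GRCm38.p6, which gave 4 start sites because Plac8 has 2. The 250 bases before a start were searched on both strands for TGANTCA, the core shared by AP-1 and Bach proteins, and for a longer motif from the Maf recognition element, the same core followed by GCA (TGC before it on the opposite strand). The sequences of the upstream Plac8 start and of the Rflnb and Mirt1 starts are shown because they contrast in these letters and in base composition. All are 5′ to 3′ on the strand of the gene, the minus strand, and capitals mark the match to the longer motif, whose first part is also the match to the core.
Mirt1, chr19:53464797-53465046: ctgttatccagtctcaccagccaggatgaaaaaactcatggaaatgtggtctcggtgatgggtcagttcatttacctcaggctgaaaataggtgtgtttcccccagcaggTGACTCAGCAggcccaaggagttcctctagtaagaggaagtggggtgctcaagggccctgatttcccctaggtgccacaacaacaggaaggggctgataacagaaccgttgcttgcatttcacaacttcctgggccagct
Plac8, chr5:100572206-100572455: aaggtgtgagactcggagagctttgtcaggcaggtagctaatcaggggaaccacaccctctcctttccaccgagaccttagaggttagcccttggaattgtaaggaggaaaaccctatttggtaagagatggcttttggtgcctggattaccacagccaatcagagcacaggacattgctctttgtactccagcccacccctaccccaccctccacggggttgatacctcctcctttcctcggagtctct
Rflnb, chr11:76027783-76028032: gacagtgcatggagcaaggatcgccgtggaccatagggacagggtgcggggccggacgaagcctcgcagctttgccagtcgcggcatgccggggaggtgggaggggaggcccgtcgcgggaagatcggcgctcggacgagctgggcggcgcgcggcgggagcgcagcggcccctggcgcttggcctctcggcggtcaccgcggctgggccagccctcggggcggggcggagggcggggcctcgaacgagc
The Mirt1 promoter held 1 match, TGACTCAGCA, at 140 to 131 bases before the start. Of all 32851 promoters in the table, 6.75% held TGANTCA in this window and 0.353% held the longer motif. Neither motif was found in the Rflnb window or in the windows of both Plac8 starts. The Rflnb promoter had 76% G and C with 34 CG pairs, against a median of 52.4% and 6 CG pairs over all promoters. The Mirt1 promoter, with 51.6% and 2 CG pairs, and the upstream Plac8 promoter, with 52.8% and 4 CG pairs, were near that median in base composition. A match of letters is a description of the sequence and not a binding site.

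Bach2 itself, which checks the labels, had log2 values of 6.50, 6.42 and 6.52 in knockout replicates 1 to 3, against 7.89, 8.20 and 8.05 in wildtype replicates 1 to 3. The arrays had medians of 4.93 to 4.97, and Pearson correlations between arrays were 0.981 to 0.991 over all probe sets. Of 7 measured markers of CD4 single-positive cells, 0 were called by limma (1 passed 0.05 unadjusted), with Cd4 at 10.34 to 10.35 in knockout and at 10.33 to 10.43 in wildtype cells and Zbtb7b, the factor that sets the CD4 fate, at 8.95 to 9.05 in knockout and 8.97 to 9.13 in wildtype cells. Signal values of different probe sets are not on a common scale, so levels are compared here only within a gene.

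Plac8 was at 8.46, 8.59 and 8.49 in knockout replicates 1 to 3, against 5.33, 6.32 and 5.06 in wildtype replicates 1 to 3. Every knockout array lay far above every wildtype array, and wildtype replicate 2 was the highest of its group. The mean was 8.51 ± 0.07 in knockout and 5.57 ± 0.66 in wildtype cells (SD, n = 3 each). The difference of 2.94 ± 0.26 (limma standard error, here and for the differences that follow) corresponds to a 7.68-fold higher signal and was the largest of all genes. The lowest knockout value stood 2.14 above the highest wildtype value, which was also the widest such gap of all genes.

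Prag1 was at 8.58, 8.67 and 8.59 in knockout replicates, against 7.19, 7.004 and 6.63 in wildtype replicates 1 to 3. The knockout arrays were nearly level, while wildtype replicate 3 was the lowest of its group. Means were 8.61 ± 0.05 in knockout and 6.94 ± 0.29 in wildtype cells (SD, n = 3 each), a difference of 1.67 ± 0.14 or 3.19-fold. The groups were 1.39 apart at their nearest.

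Rflnb was at 10.02, 10.14 and 10.13 in knockout replicates 1 to 3, against 8.86, 8.65 and 8.81 in wildtype replicates 1 to 3. It had the smallest spread of the 4 genes among wildtype arrays, and its groups were 1.16 apart. Means were 10.10 ± 0.06 in knockout and 8.77 ± 0.11 in wildtype cells (SD, n = 3 each), a difference of 1.32 ± 0.10 or 2.50-fold.

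Mirt1 was at 6.89, 6.78 and 6.70 in knockout replicates, against 5.33, 5.33 and 4.99 in wildtype replicates 1 to 3, and the groups were 1.37 apart. Means were 6.79 ± 0.09 in knockout and 5.22 ± 0.19 in wildtype cells (SD, n = 3 each), a difference of 1.57 ± 0.12 or 2.97-fold. Of the 4 genes, Mirt1 alone had more than 1 probe set. The other set, of lower mean, was at 5.53, 5.59 and 5.30 in knockout replicates, against 4.04, 4.60 and 4.46 in wildtype replicates. Its groups did not overlap either, and its difference was 1.11. The wildtype values of this set lay below the median of all values, 4.94, and were not shown to be above background, so no fold is given for it. The mean of both sets gave a difference of 1.34.

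**Figure D1:**
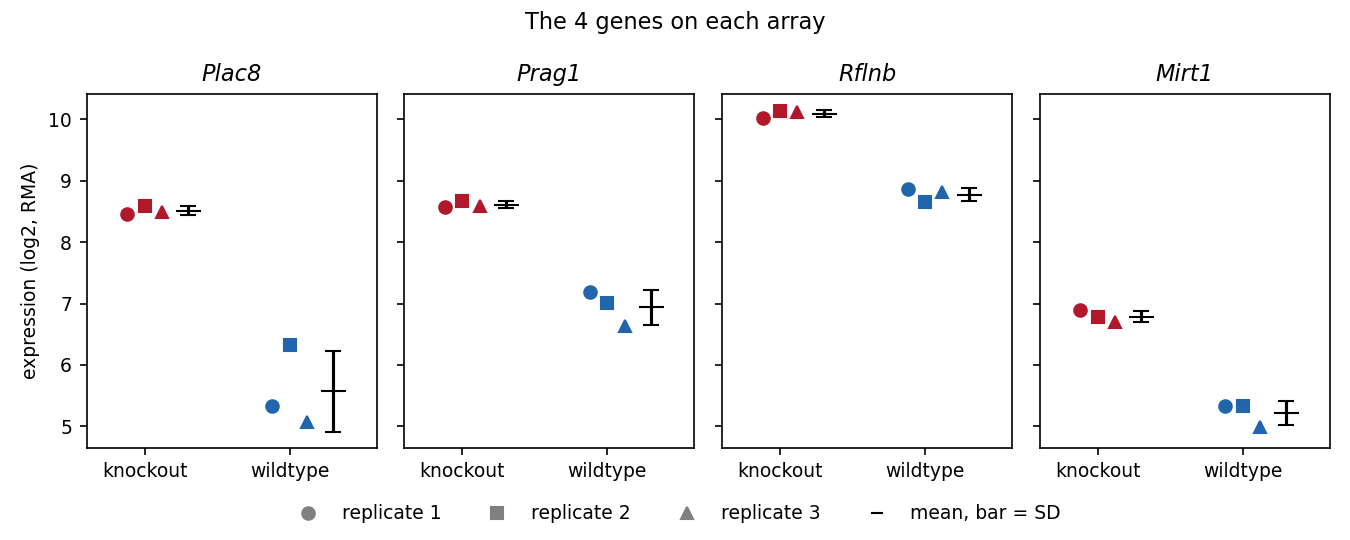
Log2 expression (y axis) of Plac8, Prag1, Rflnb and Mirt1 in knockout (left, red) and wildtype (right, blue) arrays; symbols mark the replicate number, and the black bars give the mean and SD of 3 arrays. In each panel the 3 knockout points lie above the 3 wildtype points, by 2.14 for Plac8, 1.39 for Prag1, 1.16 for Rflnb and 1.37 for Mirt1 between the nearest points.

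Over all 19938 genes, 0.351% were called higher in knockout cells (70 genes; limma, adjusted p under 0.05) and 0.216% lower. The 3 knockout values lay above the 3 wildtype values for 5.13% of genes and below them for 6.57%. All 4 members are among the genes called higher and not overlapping, which follows from their choice. Ranked by difference, Plac8 was at place 1, Prag1 at 5, Mirt1 at 7 and Rflnb at 13. Next to them stood Atxn1 (2.01), the gene of ataxin 1, below Plac8, and Edaradd (1.70), an adaptor of the ectodysplasin receptor, above Prag1. Ccr4 (1.65), a chemokine receptor, stood between Prag1 and Mirt1. Il10ra (1.56), the ligand-binding chain of the interleukin 10 receptor, followed Mirt1. The T cell receptor segment Trav7d-4 (1.35) stood just above Rflnb and the efflux transporter gene Abcb1b (1.31) just below it. Differences of similar size came with different spreads. Edaradd was at 6.35, 7.96 and 7.75 in knockout arrays and at 5.62, 6.01 and 5.33 in wildtype arrays, so its groups were only 0.34 apart, against 1.39 for Prag1, and it was not called (adjusted p = 0.089). Ranked by the gap between the nearest points, Rflnb moved up to place 8, while Prag1 was at 5 and Mirt1 at 6. Ccr4, with a gap of 1.45, was at place 4 by this measure.

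**Figure D2:**
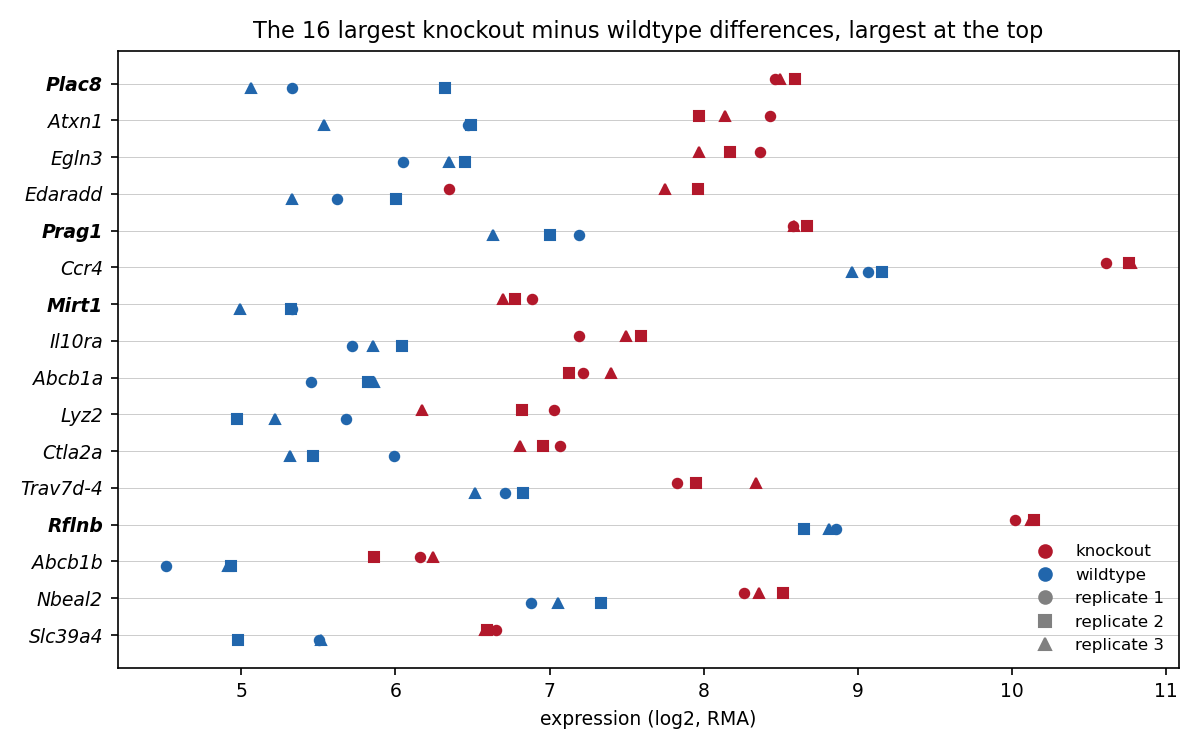
Log2 expression (x axis) on each array for the 16 genes with the largest knockout minus wildtype differences, from Plac8 (2.94) at the top to Slc39a4 (1.28) at the bottom; red points (upper in each row) are knockout and blue points (lower) wildtype arrays, and symbols give the replicate. The 4 described genes are in bold. Their red points are close together, as are those of Ccr4 (10.61 to 10.77) and Slc39a4 (6.58 to 6.65), whereas those of Edaradd span 6.35 to 7.96.

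The spread was wider among wildtype than among knockout arrays for each of the 4 genes. The wildtype SD was 9.77 times the knockout SD for Plac8, 5.63 times for Prag1, 2.04 times for Mirt1 and 1.71 times for Rflnb. Wildtype arrays varied more in general. The SD was larger in wildtype for 65.0% of all genes, with a median ratio of 1.36. A ratio above that of Plac8 was seen for 2.07% of genes and one above that of Rflnb for 38.9%. The wildtype arrays did not keep one order across the genes. Replicate 3 was lowest for Plac8, Prag1 and Mirt1, and replicate 2 was highest for Plac8 but lowest for Rflnb.

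Leaving out 1 array at a time kept each sign, which was fixed in advance because the groups of each gene do not overlap. Plac8 ranged from 2.69 without wildtype replicate 3 to 3.32 without wildtype replicate 2, and it had the largest difference of all genes in each of these 6 fits. Prag1 ranged from 1.52 to 1.80 and held places 3 to 9. Rflnb ranged from 1.26 to 1.36 at places 13 to 18, and Mirt1 from 1.46 to 1.63 at places 7 to 10.

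**Figure D3:**
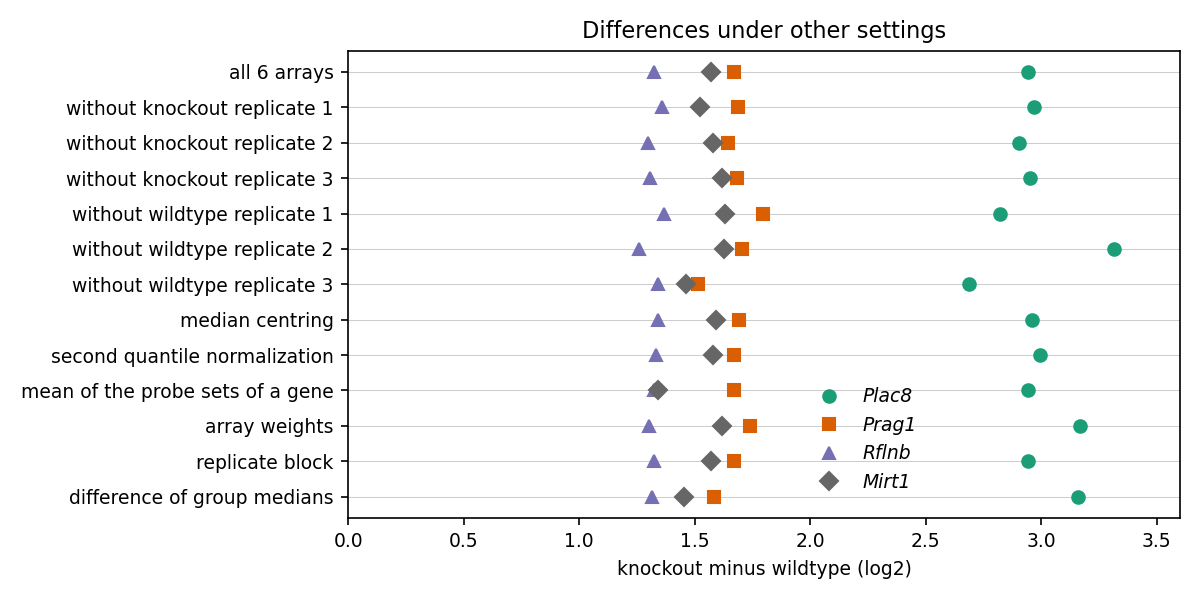
Knockout minus wildtype difference in log2 units (x axis) of the 4 genes with all 6 arrays, without each array in turn and under 6 other settings (rows). Plac8 (circles) stays between 2.69 and 3.32, and the Mirt1 point (diamonds) falls to 1.34 where its probe sets are averaged.

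Over the 6 arrays the members correlated with each other at Pearson's r of 0.94 to 0.99, which their choice for one and the same difference largely fixes. Deviations from the genotype means, pooled over both genotypes, were also correlated. Prag1 and Mirt1 deviated alike (r = 0.83 over 6 arrays), Plac8 and Mirt1 less so (0.57), and Plac8 and Rflnb in opposite ways (-0.74). Wildtype deviations were the wider ones for each gene and weigh most in these r values. In knockout replicates 1 to 3, Plac8 deviated by -0.05, 0.08 and -0.02 and Rflnb by -0.07, 0.04 and 0.03, not in opposite ways throughout. Prag1 deviated there by -0.03, 0.06 and -0.03 and Mirt1 by 0.10, -0.01 and -0.09, not alike throughout. The 6 points behind each r carry no test and share the normalization of the arrays.

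The genes whose values over the 6 arrays were most like those of each member were named by Pearson's r. For Plac8 these were Dennd2d (r = 0.996), an exchange factor for Rab GTPases, Ptpn7 (0.993), a phosphatase of lymphoid cells, and Malt1 (0.993), a protease of antigen receptor signalling. Dennd2d had a difference of 1.09 ± 0.13 and was called higher (limma adjusted p = 0.00463). Ptpn7 (0.26, adjusted p = 0.525) and Malt1 (0.24, 0.548) were not called, so that a like pattern came with very unlike sizes. Dennd2d shared with Plac8 a high wildtype replicate 2, at 8.24 against 7.78 and 7.80 in wildtype replicates 1 and 3, all below the knockout values of 8.95, 9.08 and 9.06.

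For Prag1 the most alike were Rxra (0.998), a nuclear receptor for retinoids, Iffo2 (0.997) and Mirt1 (0.994). Rxra differed by 0.27 and was not called (limma adjusted p = 0.436). Iffo2 differed by 0.65 and was called higher, but in only 2 of the 6 fits without 1 array. For Mirt1 the most alike were D16Ertd472e (0.996), with a difference of 0.54, Trat1 (0.995), a T cell receptor-associated adaptor with a difference of 0.81, and Prag1 (0.994). D16Ertd472e and Trat1 were called higher with all arrays. Without 1 array the call of Trat1 held in 6 of 6 fits and that of D16Ertd472e in 0. Prag1 and Mirt1 were therefore each among the 3 genes most like the other, which their choice for the same difference largely fixes. For Rflnb the most alike were Axin2 (0.998), a negative regulator and target gene of Wnt signalling, with a difference of 0.92, S100a11 (0.993), a calcium-binding protein, with 0.77, and Rundc3b (0.993) with 1.00. These 3 were called higher, also in each of the 6 fits without 1 array. Between 60 genes (0.301% of all other genes), for Rflnb, and 92 genes (0.461%), for Plac8, exceeded an r of 0.95.

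Families and known partners of the 4 genes were read from the same limma fit over all genes, to see whether relatives moved along. Of 80 relatives listed, 57 were measured under a single symbol, and 1 of these was called higher and 0 lower (5 had an unadjusted p under 0.05, as did 6.91% of all genes). Over all genes 0.351% were called higher and 0.216% lower. The median difference of the relatives was -0.003, against -0.011 over all genes, with 28 above and 29 below 0.

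Of 10 measured relatives of Plac8, 0 were called by limma (2 passed 0.05 unadjusted), and their differences ran from -0.28 to 0.02. Plac8l1, which shares the cysteine-rich PLAC8 domain, was at 3.76, 4.07 and 3.62 in knockout and at 3.79, 3.73 and 3.88 in wildtype arrays, and it lay below the median of all values on every array. Cornifelin, Cnfn, a further member of that family, differed by -0.06 ± 0.14. Myc, whose protein is known to repress Plac8, was at 9.71, 9.66 and 9.68 in knockout arrays, against 9.88, 10.04 and 9.96 in wildtype arrays. All 3 knockout values of Myc were the lower ones, but the difference of -0.28 ± 0.09 did not pass over all genes (limma adjusted p = 0.449). Cebpa, a factor of myeloid differentiation, had the next smallest p, with a difference of -0.25 (adjusted p = 0.715).

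Around Prag1, 0 of 18 measured relatives were called (1 at an unadjusted p under 0.05), and differences ran from -0.27 to 0.38. The sister pseudokinase Peak1 was at 7.72, 7.83 and 7.78 in knockout and at 7.71, 8.00 and 7.74 in wildtype arrays, which overlap. Csk differed by 0.02 ± 0.09. The upstream GTPase Rnd2 was at 5.52, 4.90 and 5.03 in knockout arrays and at 5.25, 4.33 and 4.73 in wildtype arrays, a difference of 0.38 ± 0.22 within overlapping groups (limma adjusted p = 0.877). Rnd1, a related GTPase, differed by 0.35 ± 0.16 (adjusted p = 0.751) and the kinase Src by -0.27 ± 0.11 (adjusted p = 0.662).

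Among refilins, filamins and actin linkers, Asb2 was the 1 of 19 measured relatives of Rflnb that was called, and 0 were called lower (2 in all at an unadjusted p under 0.05). Asb2 encodes the substrate-binding subunit of a ubiquitin ligase that targets filamins for degradation. It was at 7.82, 7.49 and 7.42 in knockout arrays, against 6.49, 6.70 and 6.53 in wildtype arrays. The groups were 0.72 apart, and Asb2 rose by 1.00 ± 0.12, or 2.00-fold (limma adjusted p = 0.00556). The call held in each fit without 1 array (adjusted p = 0.0112 to 0.0479), and it was lost with all probe sets in the fit (adjusted p = 0.109) or without moderation of the variances (0.387). Filamin A, Flna, the main filamin of blood cells, was at 9.42, 9.53 and 9.37 in knockout and at 9.21, 9.36 and 9.31 in wildtype arrays, a difference of 0.15 ± 0.10 (adjusted p = 0.906). The sister refilin Rflna was at 5.81, 5.82 and 5.58 in knockout and at 5.97, 5.70 and 5.92 in wildtype arrays, which overlap, with a difference of -0.13 ± 0.11.

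Of the named long non-coding RNAs, 10 of 27 listed were measured, and by limma 0 were called and 0 reached an unadjusted p of 0.05. Differences ran from -0.18 for Meg3 to 0.23 for Pvt1, which lies beside Myc. Mirt2, the RNA that shares its naming with Mirt1, was at 3.36, 3.32 and 3.49 in knockout and at 3.42, 3.43 and 3.45 in wildtype arrays and lay below the median of all values throughout. Malat1, an abundant nuclear RNA, differed by 0.13 ± 0.12.

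**Figure D4:**
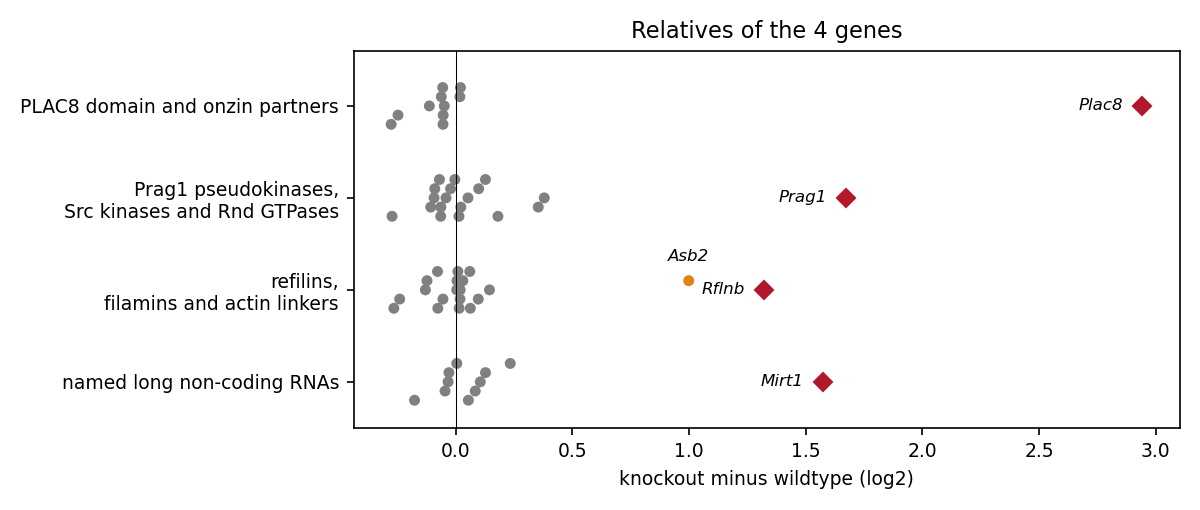
Knockout minus wildtype difference in log2 units (x axis) of the measured relatives of each gene, 1 row per list; circles are relatives, orange where called by limma and grey where not, and diamonds are the 4 genes themselves. Asb2 at 1.00 is the orange point, and the other relatives lie between -0.28 and 0.38.

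The 5 tested genes on either side of each member in gene order, 40 in all, included 0 called higher and 0 called lower by limma (4 had an unadjusted p under 0.05), where the background is 0.351% and 0.216%. Their median difference was -0.03. The highest differences of the 40 belonged to a direct neighbour of Rflnb and a direct neighbour of Plac8. The transcript 1700016K19Rik, known by a clone name and lying next to Rflnb, was at 6.99, 6.45 and 7.14 in knockout arrays, against 6.31, 5.78 and 5.75 in wildtype arrays, a difference of 0.91 ± 0.20 (adjusted p = 0.0984). Its groups were 0.14 apart, and it passed the threshold in 2 of the 6 fits without 1 array, without wildtype replicate 1 or without knockout replicate 2, and also with the replicate number as a block (adjusted p = 0.0386) and with a trended prior (0.0433).

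Coq2, next to Plac8, encodes an enzyme of coenzyme Q synthesis and was at 7.26, 7.28 and 7.17 in knockout arrays, against 6.66, 6.79 and 6.82 in wildtype arrays. The groups were 0.36 apart and the difference was 0.48 ± 0.09 (limma adjusted p = 0.0673), with no call in the 6 fits without 1 array (adjusted p = 0.0858 to 0.323). Coq2 passed in 3 other settings, without dim genes (limma adjusted p = 0.0324), with array weights (0.0412) and with a trended prior (0.0424). The gene models of both neighbours do not overlap those of the members. On the other side, Cops4 next to Plac8 differed by -0.02 ± 0.10 and Vps53 next to Rflnb by 0.01 ± 0.10. The direct neighbours of Prag1, Cldn23 and Lonrf1, differed by -0.20 ± 0.14 and 0.05 ± 0.10, and those of Mirt1, Smndc1 and the phosphatase gene Dusp5, by -0.04 ± 0.10 and -0.05 ± 0.09.

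**Figure D5:**
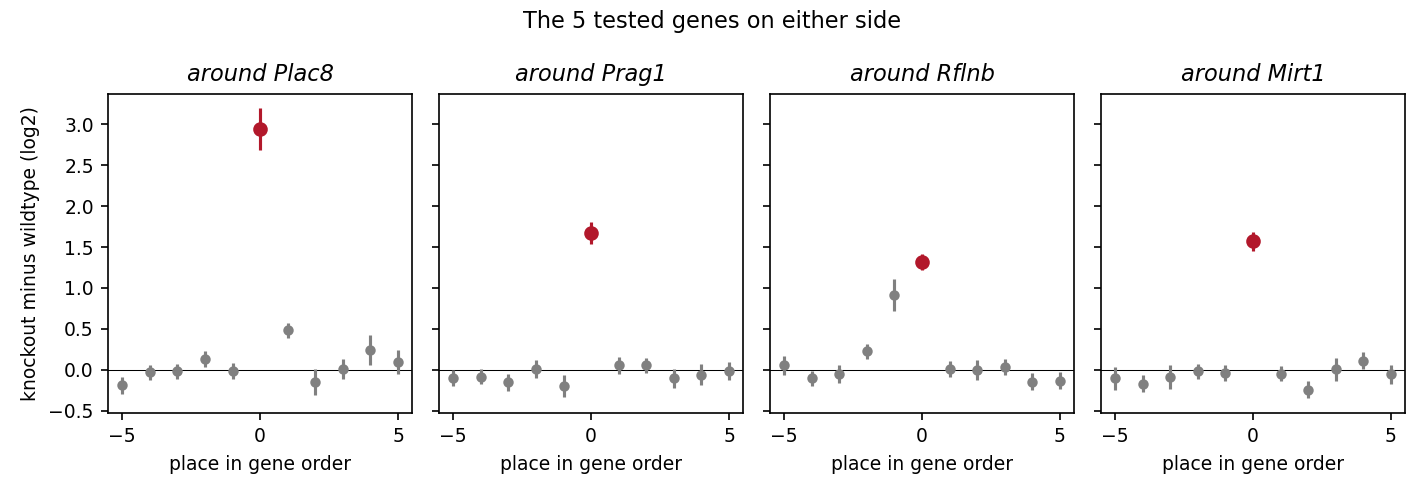
Knockout minus wildtype difference in log2 units (y axis, bars are limma standard errors) of each member (red, place 0) and of the 5 tested genes on either side in gene order (grey). The grey points lie between -0.24 and 0.91, and those above 0.4 are 1700016K19Rik beside Rflnb and Coq2 beside Plac8.

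Markers of other cells were measured on the same arrays. Counts of markers past 0.05 unadjusted are to be read against 6.91% of all genes. In RNA from sorted populations, fewer cells of a type and less RNA per cell cannot be told apart. Plac8 is also a gene of myeloid cells, and of 10 measured macrophage and monocyte markers Lyz2 was called higher and 0 lower. Lyz2, the lysozyme of myeloid cells, was at 7.03, 6.82 and 6.17 in knockout arrays, against 5.68, 4.97 and 5.22 in wildtype arrays (limma adjusted p = 0.0256), and its call was lost in 4 of 6 fits without 1 array, those without wildtype replicate 2 (0.0823) or 3 (0.153) and those without knockout replicate 1 (0.0821) or 2 (0.119). It was also lost with all probe sets in the fit (adjusted p = 0.298) and without moderation (0.616). In this list 3 markers passed 0.05 unadjusted, with Lyz2 and C1qa higher and Itgam lower in knockout arrays. Of the 10 differences, 6 were above 0 and 4 below. Itgam was at 4.09, 4.02 and 3.89 in knockout arrays, against 4.26, 4.18 and 4.56 in wildtype arrays, without overlap (difference -0.33, limma adjusted p = 0.528). C1qa, a complement component made by macrophages, was at 5.04, 4.89 and 4.76 in knockout arrays, against 4.66, 4.503 and 4.26 in wildtype arrays, which do not overlap, without passing over all genes (difference 0.42, adjusted p = 0.325). C1qb differed by 0.35 (adjusted p = 0.807) and Cd68 by 0.31 (0.932), both with overlapping groups. The mean of the macrophage list was 4.74, 4.57 and 4.36 in knockout arrays and 4.44, 4.21 and 4.39 in wildtype arrays, so the groups overlapped. Csf1r, Adgre1, Cd14, Fcgr1, Itgam and Mertk lay below the median of all values on every array. C1qa exceeded that median only in knockout replicate 1. Plac8 spanned 0.13 over the knockout arrays, on which Lyz2 spanned from 6.17 to 7.03. The part of myeloid cells in the Plac8 difference was not tested.

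Of 10 neutrophil markers 0 were called (limma; 3 passed 0.05 unadjusted) and 7 lay below the median of all values on every array. S100a8, a calcium-binding protein of neutrophils, was at 4.69, 3.64 and 5.17 in knockout arrays, against 3.39, 3.29 and 3.92 in wildtype arrays, a difference of 0.97 ± 0.32 (adjusted p = 0.456, and 0.0347 without knockout replicate 2). Its partner S100a9 was at 4.70, 4.25 and 5.05 in knockout arrays, against 4.17, 3.402 and 4.10 in wildtype arrays, a difference of 0.78 ± 0.23 without overlap (adjusted p = 0.34). Cxcr2, the third of the unadjusted passes, was lower in knockout arrays without overlap (difference -0.32, limma adjusted p = 0.493). It lay below the median of all values on every array. Of the 10 differences, 4 were above 0 and 6 below, with a median of -0.02. The neutrophil means were 3.79 to 4.06 in knockout and 3.64 to 3.97 in wildtype arrays. Of 7 markers of plasmacytoid dendritic cells, which express Plac8, 0 were called (3 unadjusted), with means of 6.77 to 6.86 in knockout and 6.77 to 6.84 in wildtype arrays. The unadjusted passes went both ways. Ccr9 was higher in knockout arrays (difference 0.38, limma adjusted p = 0.297), and Tcf4 (-0.22, 0.702) and Irf8 (-0.31, 0.636) were lower. Of the 7 differences, 4 were above 0 and 3 below. Siglech, a defining marker of these cells, lay below the median of all values on every array. Of 7 B cell markers 0 were called (0 unadjusted), with means of 4.11 to 4.18 in knockout and 3.87 to 4.17 in wildtype arrays. Of 8 natural killer cell markers 0 were called (3 unadjusted), with means of 4.55 to 4.65 in knockout and 4.62 to 4.72 in wildtype arrays.

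All 8 regulatory T cell markers had negative differences, 7 of 8 passed 0.05 unadjusted and 4 fell by limma over all genes (Foxp3, Il2ra, Ikzf2 and Lrrc32), where 0.216% of all genes were called lower. Of the others, Nrp1 differed by -1.26 (adjusted p = 0.0961), Ctla4 by -1.09 (0.0568) and Tnfrsf4 by -0.47 (0.217). The list mean was 6.73, 6.64 and 6.78 in knockout arrays, against 7.53, 8.33 and 8.32 in wildtype arrays. Without wildtype replicate 3 the calls of Il2ra (adjusted p = 0.133), Ikzf2 (0.0617) and Lrrc32 (0.0657) were lost, Lrrc32 also without knockout replicate 2 (0.0541), and of these 6 fits Il2ra passed only in the one without wildtype replicate 1. All 4 calls were lost with all probe sets in the fit (adjusted p = 0.0743 for Foxp3, 0.173 for Ikzf2, 0.223 for Lrrc32 and 0.307 for Il2ra) and without moderation (0.393 to 0.616). Wildtype replicate 1 thus lay nearest to the knockout arrays in the mean of these markers. It was also the nearest for Prag1, Rflnb and Mirt1 (for Mirt1 at 5.330, against 5.325 in replicate 2), while for Plac8 the nearest was replicate 2. Of 8 double-positive thymocyte markers 0 were called by limma (4 passed 0.05 unadjusted), and 7 differences were above 0 and 1 below. Rag1 had the highest, 1.27 within overlapping groups (limma adjusted p = 0.591). Arpp21 differed by 0.95 (0.305) and Cd24a by -0.58 (0.264), both without overlap. The list means were 6.72, 7.26 and 7.90 in knockout replicates 1 to 3 and 6.65, 6.95 and 6.96 in wildtype replicates. On the knockout arrays, where these means spanned more than 1, the members spanned 0.13 for Plac8, 0.09 for Prag1, 0.12 for Rflnb and 0.19 for Mirt1. Of 7 measured markers of late mature T cells 0 were called (4 unadjusted), and 3 differences were above 0 and 4 below. S100a4 differed by -1.37 (limma adjusted p = 0.058) and Il7r by 0.49 (0.0706), both without overlap. Means of this list were 8.87 to 8.90 in knockout and 8.84 to 9.16 in wildtype arrays. The part of any of these cell types in the differences of the 4 genes was not tested.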

How the data were processed

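RNA of CD4 single-positive thymocytes was measured on 6 arrays, 3 per genotype. The deposited values are log2 expression per probe set, made by the authors with RMA and Partek, per the submitters' processing notes, without versions. The log2 scale was read from the values (1.10 to 13.18). For the genome build and the settings of RMA, nothing is given in the sources used here. A shift shared by all genes would not be seen after RMA. Arrays give no read depth, and their number limits the precision.

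Of 35556 probe sets, 21789 had 1 symbol in the platform annotation, which can be old, 1621 had several and 12146 had none listed. The probe set with the highest mean stood for each of 19938 genes, of which 19852 matched RefSeq (GRCm38.p6) by gene number for gene order. Knockout was set against wildtype with limma 3.58.1 in R 4.3.3 (lmFit, eBayes), all tests were two-sided, p-values were adjusted after Benjamini and Hochberg with a threshold of 0.05, and the fit was tested on simulated data. Figures were drawn with matplotlib 3.10.9.

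The members, the lists of relatives and markers and the tests were chosen with earlier results of these data known. Named were Bach2, the members, the genes ranked next to them and closest paralogs. Also named were up to 4 called relatives per list or otherwise the 2 with the smallest p. Direct and called neighbours, the 3 genes most like each member, and called markers were named as well. Defining markers were named for some lists only. Further relatives (Csk, Rnd2, Malat1) and markers (Nrp1, Ctla4, Tnfrsf4, C1qa, C1qb, Cd68, Itgam, S100a8, S100a9, Cxcr2, Ccr9, Irf8, Arpp21, Cd24a, S100a4, Il7r) were named after their values were seen. Alternatives were other priors, filters, normalizations, probe set rules, array weights, the replicate number as a block and leaving out each array.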

Additional observations from a re-analysis of the deposited data

How the results depend on the processing

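Of 48 alternative values for the differences of the 4 genes, 46 moved by less than 1 SD between replicates and 0 changed sign. The exceptions were Mirt1 at 1.34 with the mean of its probe sets and Plac8 at 3.32 without wildtype replicate 2. In the former the lower set enters by construction. Without 1 array or with group medians no sign could change, because the groups of each gene do not overlap. Some of the 46 could not move. Plac8, Prag1 and Rflnb have 1 probe set each, so the mean of probe sets leaves them unchanged. The same holds for all 4 genes with the replicate number as a block. Without 1 array, differences ranged from 2.69 to 3.32 for Plac8, 1.52 to 1.80 for Prag1, 1.26 to 1.36 for Rflnb and 1.46 to 1.63 for Mirt1. The background of called genes depended more on the setting. Against 70 higher and 43 lower genes, there were 29 and 8 with all 35556 probe sets, 1 and 0 without moderation, and 78 lower with a trended prior; the cause was not tested. Without 1 array, 29 to 82 were higher and 18 to 66 lower. Of 128 counts of called relatives 126 were as reported, and the other 2 were the lost call of Asb2. Replicate numbers were not taken as pairs. The design text gives separate mice, and deviations of same-numbered samples correlated at 0.21, 0.11 and -0.07. Knockout replicates 1 and 2 each correlated best with the wildtype replicate of the same number. Knockout replicate 3 correlated best with wildtype replicate 2 (0.17). These values do not settle whether samples of the same number belong together. With the replicate number as a block, 79 genes were higher and 55 lower, and the differences of the 4 genes are the same by construction (Plac8 2.94, Prag1 1.67, Rflnb 1.32, Mirt1 1.57). Signal over background limits Plac8l1, Cebpa, Meg3, Mirt2, Cldn23 and Lonrf1, which lay below the median of all values on every array, and the lower Mirt1 probe set, which did so in wildtype.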
